A study of Bos taurus with 9 samples.

Results

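The dense cluster of chromatin peaks on bovine chromosome 17, between positions 50000001 and 52000000 of the assembly UMD3.1.1, was examined in rumen epithelial tissue of Holstein calves. Its members were all peaks that start in this 2 Mb window, in any of 8 peak lists, and the window had been chosen because peaks are dense there, so the counts that follow are a description and were not tested. The window held 1333 of the 130580 peaks of the series. Merging peaks that share at least 1 bp gave 452 regions, of 87013 merged regions in the genome. Almost all of these regions carried H3K9me3, and 38.9% of them carried at least 1 of the 3 marks of active chromatin at either time point.

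Chromatin immunoprecipitation followed by sequencing (ChIP-seq) recovers the DNA bound by a chosen protein or modified histone, and a peak is a stretch where this DNA exceeds the background. There was 1 library for each of H3K9me3, RNA polymerase II (RNA pol II), H3K9ac and H3K27ac before weaning and 1 for each after weaning, all from the same tissue and breed. An input library, sequenced without immunoprecipitation, was the common background. The number and age of the calves behind a library are not given in the sources used here. With 1 library per group there was no replicate error, and intervals below are 95% intervals that cover counting error only; neighbouring regions are not independent.

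As background, H3K9me3 is written by histone methyltransferases such as SUV39H1 and SETDB1 and bound by HP1 proteins, and it marks condensed, silent chromatin, in which tandem repeats and mobile elements are often found. H3K9ac and H3K27ac are placed by histone acetyltransferases at active promoters and enhancers, and RNA pol II is the enzyme that transcribes protein-coding genes. In most of a genome the acetylated and the trimethylated forms of H3 lie apart, and a given lysine 9 cannot be acetylated and trimethylated at once.

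Each list is one of called intervals without a height, so occupancy could be counted but not ranked by strength. The 8 lists held between 738 and 74249 peaks, and the lists give no read depth (the mapping summary of the study was not used here). By their labels, the H3K9me3 libraries were run on different lanes, lane 2 before and lane 1 after weaning, and here the lane cannot be told apart from the time point. Both libraries of every other mark shared a lane. The time points of the RNA pol II lists were taken from the labels. The study's text assigns the shorter RNA pol II list to the opposite time point, and an exchange of these lists would turn the change in its number of peaks from before to after weaning, so values with the lists exchanged are given beside the results. Genes could not be placed, since no annotation of UMD3.1.1 was used here, and for the same reason the marker genes of rumen epithelium were not examined.

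H3K9me3 was the most frequent mark of the window at both time points. It had 395 peaks before and 435 after weaning, which was 16.4% (15.0 to 17.9) and 10.4% (9.54 to 11.4) of its lists. RNA pol II came next, with 127 peaks before and 192 after weaning, 6.18% (5.22 to 7.30) and 26.0% (23.0 to 29.3) of its lists. H3K9ac had 29 and 82 peaks and H3K27ac 9 and 64, and none of these 4 counts exceeded 4% of its list. The order of the marks by number of peaks was thus H3K9me3, RNA pol II, H3K9ac and H3K27ac at both time points.

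**Figure D1:**
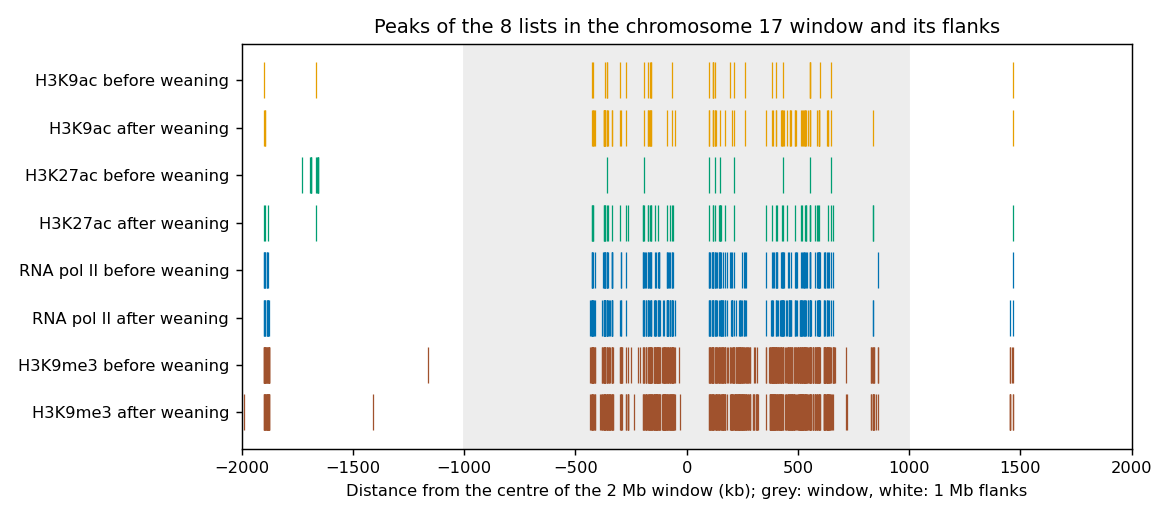
Each vertical line is 1 peak, drawn by its distance in kb from the centre of the window, with 1 row per list; the grey area is the 2 Mb window and the white areas its 1 Mb flanks. Inside the window the peaks fall into 2 large blocks, with a small group to their right, and the left flank holds a run of H3K27ac peaks before weaning without H3K9me3.

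By the labelled time points, the active marks were more numerous in the window after weaning than before, whereas they were fewer in the rest of the genome. For H3K9ac, peaks after weaning divided by peaks before gave 2.83 (1.83 to 4.48) in the window and 0.142 (0.136 to 0.149) outside it. For H3K27ac this ratio was 7.11 (3.52 to 16.3) against 0.409 (0.404 to 0.415). For RNA pol II it was 1.51 (1.202 to 1.91) against 0.283 (0.257 to 0.311), and with its lists exchanged it was 0.661 (0.524 to 0.832) against 3.53 (3.21 to 3.89). For H3K9me3 it was 1.101 (0.959 to 1.27) in the window, an interval that includes no change, and 1.85 (1.76 to 1.96) outside. The sizes depended on how many peaks of a list were taken. With equal numbers of the widest peaks before and after weaning the H3K9ac ratio was 27.3, from only 3 peaks before and 82 after. It was 3.31 for RNA pol II (58 and 192 peaks) and 0.922 for H3K9me3 (395 and 364), and H3K27ac had no peak left before weaning. The window was chosen on peaks of both time points, so these ratios are not independent of that choice.

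**Figure D2:**
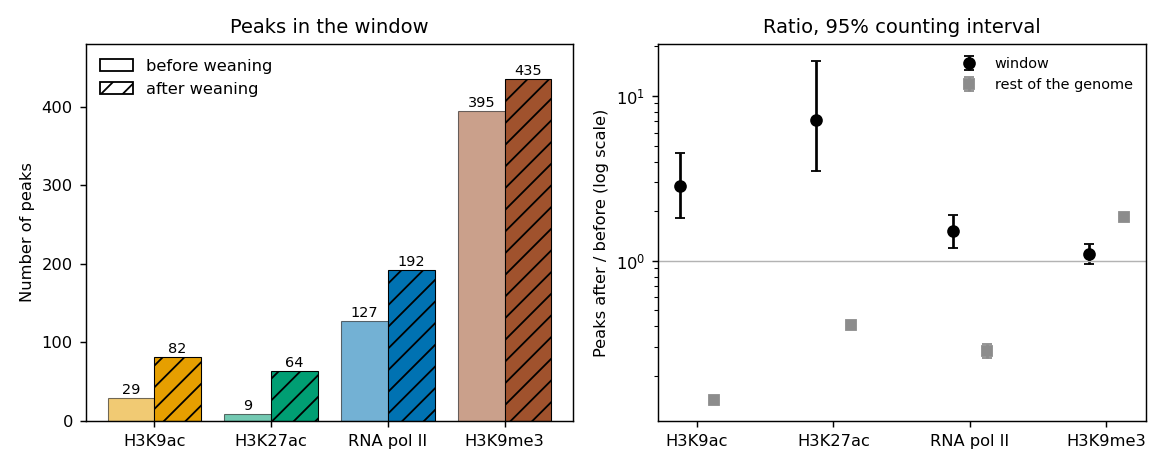
Left, the number of peaks in the window for each mark before (plain bars) and after weaning (hatched bars). Right, peaks after weaning divided by peaks before, on a log scale, in the window (circles) and in the rest of the genome (squares), with 95% counting intervals as error bars; by the labelled time points the 3 active marks lie above 1 in the window and below 1 outside it, and H3K9me3 lies close to 1 in the window.

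Among all 1301 windows of 2 Mb with at least 1 peak, the window ranked 1 for both H3K9me3 lists, both RNA pol II lists and H3K9ac after weaning. The next highest window held 72 H3K9me3 peaks before and 147 after weaning, 26 RNA pol II peaks before and 38 after, and 22 H3K9ac peaks after weaning. For the acetylated marks before weaning the window did not stand at the top. It ranked 112 for H3K9ac, and with 9 peaks it ranked 1062 for H3K27ac, whose densest window had 343. After weaning it ranked 106 for H3K27ac.

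The peaks of the window lay in 2 large blocks and a small group. The left block ran from 50563227 to 50968049 (405 kb) and held 147 regions, or 36.3 per 100 kb. The right block ran from 51101191 to 51719756 (619 kb) and held 294 regions, or 47.5 per 100 kb. Between them lay 133 kb without a peak of any list. The small group, with 11 regions, lay at 51827414 to 51858865, after a gap of 108 kb. Merged regions covered 22.2% of the left block, 28.2% of the right block and 11.9% of the small group.

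The edges of the cluster were sharp, and both ends of the 2 Mb window fell in stretches without peaks. The last region before the cluster ended at 49835518, 728 kb before its first base, and the next region after it began at 52450942, 592 kb after its last base. A run of regions with gaps of at most 50 kb, taken from the densest 100 kb bin (61 regions, from 51500001), reached from 51101191 to 51667344 and held 292 regions. It left out the last 2 regions of the right block, which follow a gap of 50494 bp, and the whole left block.

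The blocks had the same order of marks. In the left block H3K9me3 had 130 peaks before and 143 after weaning, RNA pol II 48 and 76, H3K9ac 13 and 31, and H3K27ac 2 and 28. In the right block the same counts were 256 and 282 for H3K9me3, 78 and 114 for RNA pol II, 16 and 50 for H3K9ac, and 7 and 34 for H3K27ac. By the labels, each active mark therefore had more peaks after weaning in both blocks. Regions occupied in all 8 lists numbered 2 in the left block and 6 in the right block.

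The active marks were not spread evenly over the H3K9me3 peaks. In the 100 kb from 51500001, 63 H3K9me3 peaks after weaning were accompanied by 31 of RNA pol II, 16 of H3K9ac and 12 of H3K27ac. In the 100 kb from 51200001, a similar number of H3K9me3 peaks, 58, was accompanied by 15 of RNA pol II, 3 of H3K9ac and 1 of H3K27ac. The 100 kb from 50600001 held 33 H3K9me3 peaks after weaning, with 21 of RNA pol II, 13 of H3K9ac and 8 of H3K27ac. These bins were picked after their values were seen, as examples of the range.

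Occupancy was then counted per merged region. Of the 452 regions, 145 had a peak in 1 list, 139 in 2, 58 in 3 and 110 in 4 or more lists. In the genome 70.5% of regions had a peak in 1 list, against 32.1% in the window. All 4 marks, counted over both time points, were found together in 40 regions of the window (8.85%, 6.57 to 11.8) and in 0.205% of regions genome-wide. Peaks of all 8 lists met in 8 regions (1.77%, 0.8995 to 3.45) and in 0.0333% of all regions.

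H3K9me3 was present at either time point in 451 of the 452 regions. In 276 regions (61.1%) it was the only mark. The most frequent patterns were H3K9me3 in both lists alone (131 regions), H3K9me3 after weaning alone (97) and H3K9me3 before weaning alone (48), followed by H3K9me3 in both lists with RNA pol II after weaning (40). The single region without H3K9me3, at 51436482 to 51437077, had RNA pol II in both lists and H3K9ac after weaning.

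The active marks of the window were thus found on H3K9me3 regions, unlike those of the genome as a whole. RNA pol II also lay mostly on H3K9me3 in other windows rich in that mark, given below. Before weaning, all 27 H3K9ac regions (87.5 to 100%), all 9 H3K27ac regions (70.1 to 100%) and 107 of 110 RNA pol II regions (97.3%, 92.3 to 99.1) also had an H3K9me3 peak of the same time point. Over all merged regions of the genome 0.988% of H3K9ac regions, 0.0748% of H3K27ac regions and 21.2% of RNA pol II regions did so. After weaning, 70 of 72 H3K9ac regions (97.2%, 90.4 to 99.2), all 56 H3K27ac regions (93.6 to 100%) and 150 of 157 RNA pol II regions (95.5%, 91.1 to 97.8) had H3K9me3, against 13.6%, 0.856% and 85.8% in the genome. For RNA pol II after weaning the share was high outside the window too, at 82.7% (79.0 to 85.8). The RNA pol II shares depended on the overlap asked for, and with a reciprocal overlap of 50% they were 51.97% of RNA pol II peaks before and 45.8% after weaning. Under exchanged RNA pol II lists, 154 of 157 RNA pol II regions had H3K9me3 before weaning (98.1%, 94.5 to 99.3) and 105 of 110 after weaning (95.5%, 89.8 to 98.0), against 87.1% and 19.9% in the genome.

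**Figure D3:**
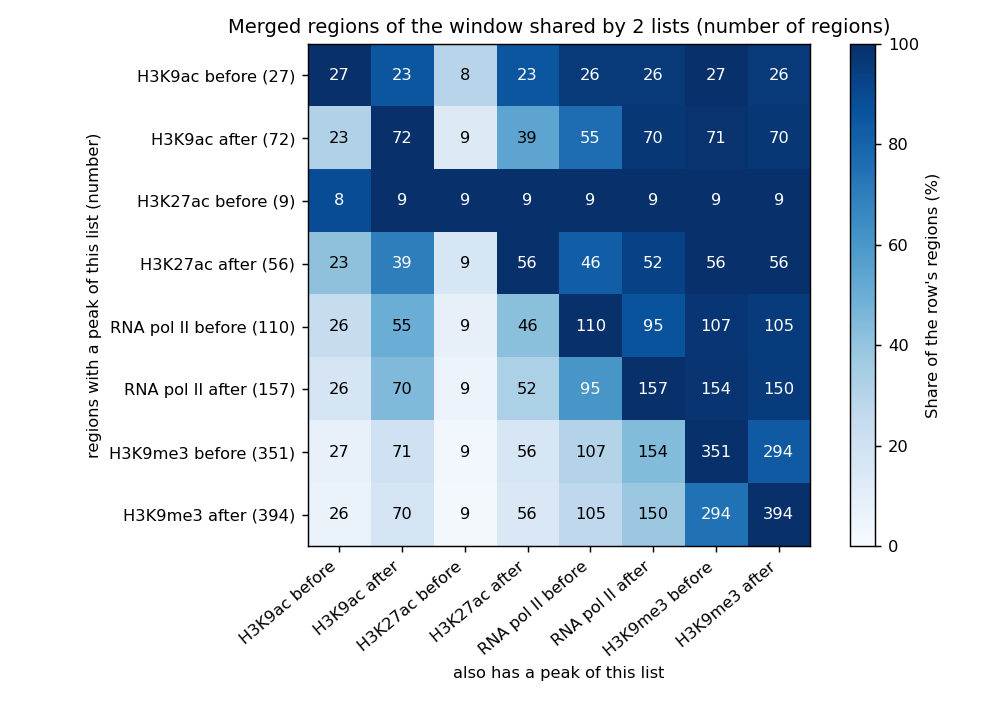
Each cell gives the number of merged regions of the window that have a peak of both the row's and the column's list, and its colour the share of the row's regions, in percent. The columns of H3K9me3 are dark for every active mark, and the columns of H3K27ac before weaning are pale for all lists but its own.

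In the reverse direction, most H3K9me3 regions of the window carried no active mark. RNA pol II was found on 107 of 351 H3K9me3 regions before weaning (30.5%, 25.9 to 35.5) and on 150 of 394 after weaning (38.1%, 33.4 to 43.0), with 17.4% and 13.4% in the genome. If the RNA pol II lists were exchanged, the shares were 43.9% (38.8 to 49.1) and 26.6% (22.5 to 31.2), with 24.3% and 9.15% in the genome. H3K9ac was found on 7.69% of them before (5.34 to 11.0) and 17.8% after weaning (14.3 to 21.8), with 5.49% and 6.85% in the genome. H3K27ac was found on 2.56% before (1.35 to 4.80) and 14.2% after weaning (11.1 to 18.0), with 2.42% and 5.69% in the genome. Before weaning the acetylated marks thus had shares on H3K9me3 regions of the window whose intervals include or overlap those of H3K9me3 regions outside it, 4.20 to 6.17% for H3K9ac and 1.80 to 3.17% for H3K27ac.

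In the window, acetylated regions had RNA pol II more often than H3K9ac regions had H3K27ac. RNA pol II lay on 26 of the 27 H3K9ac regions before and 70 of 72 after weaning, and on all 9 and 52 of 56 H3K27ac regions. Over the genome RNA pol II lay on 8.72% and 12.8% of H3K9ac regions and on 1.96% and 0.834% of H3K27ac regions. With the RNA pol II lists exchanged, it lay on 26 of 27 and 55 of 72 H3K9ac regions of the window (76.4% after weaning, 65.4 to 84.7) and on all 9 and 46 of 56 H3K27ac regions (82.1% after weaning, 70.2 to 90.0), against 1.04%, 18.4%, 0.0789% and 5.00% over the genome. Only 8 of the 27 H3K9ac regions of the window had H3K27ac before weaning (29.6%, 15.9 to 48.5) and 39 of 72 after weaning (54.2%, 42.7 to 65.2). In the genome H3K27ac was present on 88.8% and 71.8% of H3K9ac regions. The reverse shares went the other way. Of the H3K27ac regions of the window, 8 of 9 had H3K9ac before weaning (88.9%, 56.5 to 98.0) and 39 of 56 after weaning (69.6%, 56.7 to 80.1). In the genome 15.3% and 5.45% of H3K27ac regions did.

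Most active peaks lay wholly inside an H3K9me3 peak. Before weaning, 107 of 127 RNA pol II peaks (84.3%, 76.9 to 89.6), 28 of 29 H3K9ac peaks and all 9 H3K27ac peaks lay wholly inside 1 H3K9me3 peak of the same time point. After weaning this held for 122 of 192 RNA pol II peaks (63.5%, 56.5 to 70.0), 67 of 82 H3K9ac peaks and 59 of 64 H3K27ac peaks. Under exchanged RNA pol II lists, it held for 151 of 192 RNA pol II peaks before (78.6%, 72.3 to 83.9) and 91 of 127 after weaning (71.7%, 63.3 to 78.8). The centres of RNA pol II peaks and the nearest H3K9me3 peaks they touched were a median of 79.3 bp apart before and 106.5 bp after weaning.

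Peak widths in the window differed between the marks. The median H3K9me3 peak was 386 bp wide before and 370 bp after weaning, compared with 261 and 240 bp for H3K9me3 peaks elsewhere. RNA pol II peaks had medians of 291 and 312 bp, against 270 and 308.5 bp elsewhere. H3K9ac peaks had medians of 253 and 305 bp, against 266 and 242 bp, and H3K27ac peaks 264 and 273.5 bp, against 343 and 290 bp. The H3K9me3 peaks in the window were thus wider than elsewhere at both time points, and the H3K27ac peaks narrower. H3K9me3 peaks in regions with RNA pol II of the same time point had a median width of 604.5 bp before weaning (497 to 689), against 340 bp (306 to 361) where RNA pol II had no peak, and 521.5 bp (453 to 625) against 298 bp (282 to 328) after weaning. If the RNA pol II lists were exchanged, these medians were 545 and 312 bp before and 593 and 316.5 bp after weaning. A wide peak has more room to be touched by another, and the part of width in this difference was not tested.

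The widest peaks of 4 lists fell in the same region. For H3K9ac these were at 50641249 to 50641702 (454 bp) before and 50641279 to 50642340 (1062 bp) after weaning, for H3K27ac after weaning at 50641248 to 50642330 (1083 bp), and for RNA pol II before weaning at 50641270 to 50642351 (1082 bp). After weaning RNA pol II was widest at 51399676 to 51401107 (1432 bp). Before weaning H3K27ac was widest at 51148692 to 51149021 (330 bp). The widest H3K9me3 peaks of the window were at 51515039 to 51517571 (2533 bp) before and 50932848 to 50935441 (2594 bp) after weaning.

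Both time points were then compared region by region. By the labels, most regions of the window kept their marks. Of the regions with H3K9ac before weaning, 23 of 27 had it after weaning (85.2%, 67.5 to 94.1), against 7.85% in the genome. For H3K27ac it was all 9 (70.1 to 100%), against 27.3%, for RNA pol II 95 of 110 (86.4%, 78.7 to 91.6), against 19.0%, and for H3K9me3 294 of 351 (83.8%, 79.5 to 87.2), against 50.9%. With the RNA pol II lists exchanged, RNA pol II was kept in 95 of 157 regions (60.5%, 52.7 to 67.8), against 55.8% in the genome, and that interval includes the share of the genome. The kept shares also depended on the overlap asked for: where peaks had to overlap reciprocally by 50%, the kept share of H3K9ac peaks was 58.6%.

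Regions that gained an active mark after weaning were, with 1 exception each for H3K9ac and RNA pol II, H3K9me3 regions already before weaning. H3K9ac was gained in 49 regions, 68.1% (56.6 to 77.7) of its regions after weaning, where the genome had 51.7%. H3K27ac was gained in 47 regions (83.9%, 72.2 to 91.3), where the genome had 25.8%. RNA pol II was gained in 62 regions (39.5%, 32.2 to 47.3), where the genome had 44.2%, and H3K9me3 in 100 regions (25.4%, 21.3 to 29.9), where the genome had 71.6%. H3K9me3 had been present before weaning in 48 of the 49 regions gaining H3K9ac, in all 47 gaining H3K27ac and in 61 of the 62 gaining RNA pol II. In the genome, 16.6%, 2.57% and 80.4% of the gained regions did. Under exchanged RNA pol II lists, RNA pol II was gained in 15 of 110 regions of the window (13.6%, 8.44 to 21.3), where the genome had 81.0%. H3K9me3 had been present in 14 of these 15, against 4.55% of such regions in the genome.

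Counting the active marks of each region gave the same direction. Of the 176 regions with any active mark, 121 had more active marks after than before weaning (68.8%, 61.6 to 75.1) and 15 had fewer (8.52%, 5.23 to 13.6). In the genome 9.53% of such regions had more and 74.5% fewer. With RNA pol II left out, 77 of 91 regions had more acetylated marks after weaning (84.6%, 75.8 to 90.6) and 2 had fewer (2.20%, 0.605 to 7.66), against 9.34% and 74.4% in the genome. If the RNA pol II lists were exchanged, 77 of 176 had more active marks (43.8%, 36.6 to 51.1) and 46 fewer (26.1%, 20.2 to 33.1), against 9.80% and 73.1%, so the excess of gains was smaller but had the same direction. The largest groups of changed regions went from 0 to 1 active mark (48 regions) and from 1 to 2 (30 regions), and all 8 regions with 3 active marks before weaning still had 3.

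H3K9me3 regions elsewhere in the genome were the closest comparison, because the window is made of them, and there the same direction was found. Of H3K9me3 regions with any active mark, 120 of 175 in the window had more active marks after weaning (68.6%, 61.4 to 75.0) and 352 of 573 outside it (61.4%, 57.4 to 65.3), with 63.1% over the genome. Fewer active marks were found in 15 of 175 (8.57%, 5.26 to 13.7) and 105 of 573 (18.3%, 15.4 to 21.7), with 16.0% over the genome. The intervals overlap for more active marks and do not overlap for fewer. With RNA pol II left out, more acetylated marks were found in 76 of 90 H3K9me3 regions in the window (84.4%, 75.6 to 90.5) and 212 of 329 outside (64.4%, 59.1 to 69.4), with 68.7% over the genome. Fewer were found in 2 of 90 (2.22%, 0.612 to 7.74) and 65 of 329 (19.8%, 15.8 to 24.4), with 16.0% over the genome, so that neither pair of intervals overlaps. With the RNA pol II lists exchanged, more active marks were found in 43.4% (36.3 to 50.8) in the window and 39.6% (35.7 to 43.7) outside, with 40.5% over the genome. Fewer were found in 26.3% (20.3 to 33.3) in the window and 37.0% (33.1 to 41.0) outside, with 34.5% over the genome, and these 2 intervals overlap by little. Among regions with H3K9me3 in both lists and no H3K9ac before weaning, 47 of 268 gained H3K9ac in the window (17.5%, 13.5 to 22.5) and 119 of 781 outside it (15.2%, 12.9 to 17.9), with 15.8% over the genome. For H3K27ac it was 47 of 285 (16.5%, 12.6 to 21.2) and 130 of 837 (15.5%, 13.2 to 18.1), with 15.8% over the genome. For RNA pol II it was 56 of 191 (29.3%, 23.3 to 36.1) and 145 of 607 (23.9%, 20.7 to 27.4), with 25.2% over the genome, and with its lists exchanged 11 of 146 (7.53%, 4.26 to 13.0) and 33 of 495 (6.67%, 4.79 to 9.21), with 6.86% over the genome. The intervals of window and outside overlap in all 3 marks, for RNA pol II with either order of its lists. Over all regions with H3K9me3 before weaning, whether or not it was kept, the shares lay further apart. H3K9ac was gained in 48 of 324 such regions in the window (14.8%, 11.4 to 19.1) and 129 of 1827 outside (7.06%, 5.97 to 8.33), with 8.23% over the genome. H3K27ac was gained in 47 of 342 (13.7%, 10.5 to 17.8) and 133 of 1879 (7.08%, 6.004 to 8.33), with 8.10% over the genome. These intervals do not overlap, and H3K9me3 itself was kept more often in the window, in 83.8% of regions against 44.9% outside. Here and below, overlap of intervals is a description and no test, since neighbouring regions are not independent. The window was also chosen on these same lists.

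Losses were counted on the regions with H3K9me3 in both lists. In the window 3 of 26 regions lost H3K9ac, against 8 of 84 (9.52%) outside and 11 of 110 over the genome. RNA pol II was lost in 11 of 103 (10.7%, 6.07 to 18.1), against 12.8% outside and 12.2% over the genome. Under exchanged RNA pol II lists, it was lost in 56 of 148 (37.8%, 30.4 to 45.9), against 39.2% outside and 38.8% over the genome. H3K27ac was lost in 0 of 9, which allows a share of up to 33.3% by the limit of 3 counts (the Wilson bound is 29.9%), and in 8.11% over the genome. Of the 61544 regions of the genome with fewer active marks after weaning, 120 carried H3K9me3 at either time point. This count was 258 of 60341 with the RNA pol II lists exchanged and 67 of 61085 with RNA pol II left out. H3K9me3 regions were rare to begin with, at 748 of the 82569 regions of the genome with any active mark. They were 419 of 82153 regions with any acetylated mark. The small counts alone therefore do not show that H3K9me3 regions were spared.

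Gains of acetylation were more frequent in regions with RNA pol II in the list labelled before weaning. H3K9me3 peaks of the window were also wider in such regions, as given above, and the part of width in this difference was not tested. Among regions of the window with H3K9me3 before weaning and no H3K9ac, H3K9ac was gained in 32 of 81 with RNA pol II before weaning (39.5%, 29.6 to 50.4) and in 16 of 243 without it (6.58%, 4.09 to 10.4). For H3K27ac the counts were 37 of 98 (37.8%, 28.8 to 47.6) and 10 of 244 (4.10%, 2.24 to 7.38). Over the genome the shares were 45.1% and 2.57% for H3K9ac and 42.9% and 1.34% for H3K27ac, so this order was common to H3K9me3 regions at large. Outside the window, gains in regions without RNA pol II were rarer than in it, at 1.97% (1.40 to 2.77) for H3K9ac and 0.928% (0.563 to 1.53) for H3K27ac, and these intervals do not overlap those of the window. In regions with RNA pol II they do, at 47.3% (40.6 to 54.1) and 44.9% (39.0 to 50.9) outside. If the RNA pol II lists were exchanged, H3K9ac was gained in 46 of 128 regions with RNA pol II (35.9%, 28.1 to 44.5) and 2 of 196 without it (1.02%, 0.280 to 3.64), against 34.6% and 1.35% over the genome. For H3K27ac it was 43 of 145 (29.7%, 22.8 to 37.5) and 4 of 197 (2.03%, 0.792 to 5.10), against 32.8% and 0.588%. The order was the same with either list, but with the lists exchanged the intervals of window and outside overlap in regions without RNA pol II (outside 0.911 to 2.12% for H3K9ac and 0.183 to 0.867% for H3K27ac).

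The 8 regions with a peak in all 8 lists were spread over both blocks. In order along the chromosome they lay at 50641208 to 50643299, 50809160 to 50809928, 51102141 to 51102513, 51127029 to 51128712, 51210045 to 51210565, 51430591 to 51431470, 51552755 to 51554495 and 51647638 to 51648458, and they were between 373 and 2092 bp wide. Regions 2, 3, 5, 6 and 8 of this order had exactly 1 peak in each list. In region 3, the narrowest, the centres of these peaks lay from -2.5 to 29 bp from its own centre. Region 5 was also compact. Its peaks of H3K9ac, H3K27ac and RNA pol II before weaning and of H3K27ac after weaning all began at 51210238, and the H3K9me3 peaks around them began at 51210113 before and 51210045 after weaning.

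**Figure D4:**
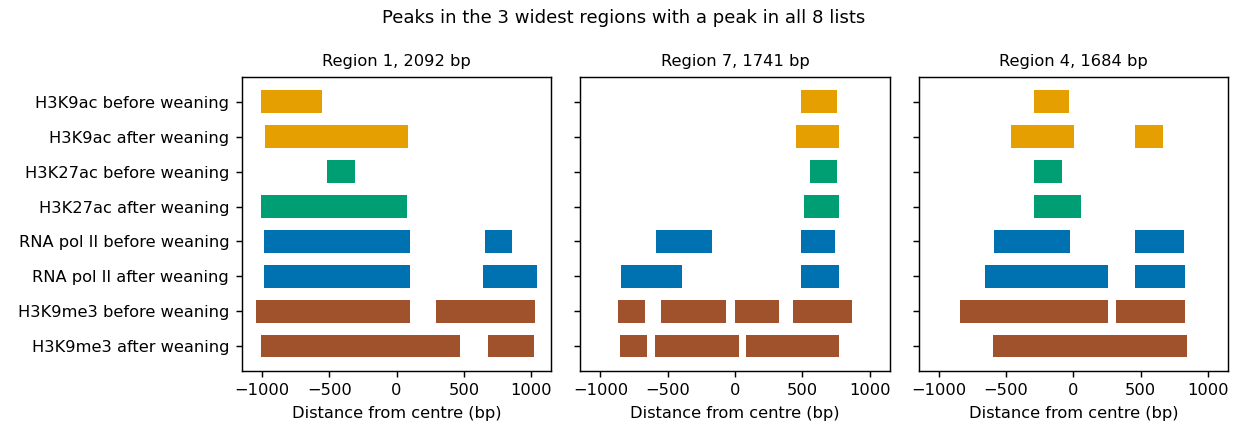
Bars are the peaks of each list in the 3 widest regions with a peak in all 8 lists, drawn by distance in bp from the centre of the region and numbered by order along the chromosome. The acetylated marks fill only part of each region (the right end of region 7, 1741 bp wide), while H3K9me3 extends over most of it.

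In region 1, the widest, the acetylated marks lay on the left part. H3K27ac had a peak of 210 bp there before weaning and of 1083 bp after weaning, and H3K9ac of 454 and 1062 bp. RNA pol II in the same place was 1082 bp wide before and 1083 bp after weaning, and ended at 50642351 in both lists, as did H3K9me3 before weaning. A second RNA pol II peak on the right was 200 and 400 bp wide and had no acetylated peak with it. Region 7 consisted of 4 H3K9me3 peaks before and 3 after weaning, with both acetylated marks only on the last of them.

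Spacing was examined next. The centres of neighbouring regions were a median of 1272.5 bp apart (1164.5 to 1391), with quartiles of 863.5 and 2258 bp. In the left block the median was 1442 bp and in the right block 1203 bp. Within single lists the spacing followed the number of peaks. For H3K9me3 the median was 1299 bp before and 1225 bp after weaning. It was 3749 and 2424 bp in the RNA pol II lists, 17292 and 4862 bp in those of H3K9ac, and 108441 and 9425 bp in those of H3K27ac.

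No leading lag was common to the lists and settings examined. Distances between all pairs of regions were most frequent at 1000 to 1250 bp, with 81 pairs, and from 2 to 20 kb each 250 bp held a median of 56.5 pairs, with a range of 44 to 79. The highest of these, 79 pairs, was at 15500 to 15750 bp and stood alone. The autocorrelation of the covered bases, which measures how alike the pattern is to itself after a shift, had its highest local maximum from 500 bp to 50 kb at a lag of 1600 bp (r = 0.332). This maximum was only slightly above the value at 1500 bp (0.328), and the multiples of that lag at 3200, 4800, 6400 and 8000 bp were no local maxima. The 3 highest local maxima, at 1600, 2700 and 3800 bp, were evenly spaced. Later ones at 6000 and 7100 bp fell on the same step, while those at 4300 and 8400 bp did not. Whether this step is a period was not tested. The curve fell slowly, to 0.254 at 10 kb and 0.143 at 50 kb. The leading lag also differed between lists, from 600 bp for H3K9ac before weaning to 46.5 kb for H3K27ac before weaning, and was 1800 and 2100 bp in the H3K9me3 lists and 700 bp and 9.5 kb in the RNA pol II lists, before and after weaning.

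**Figure D5:**
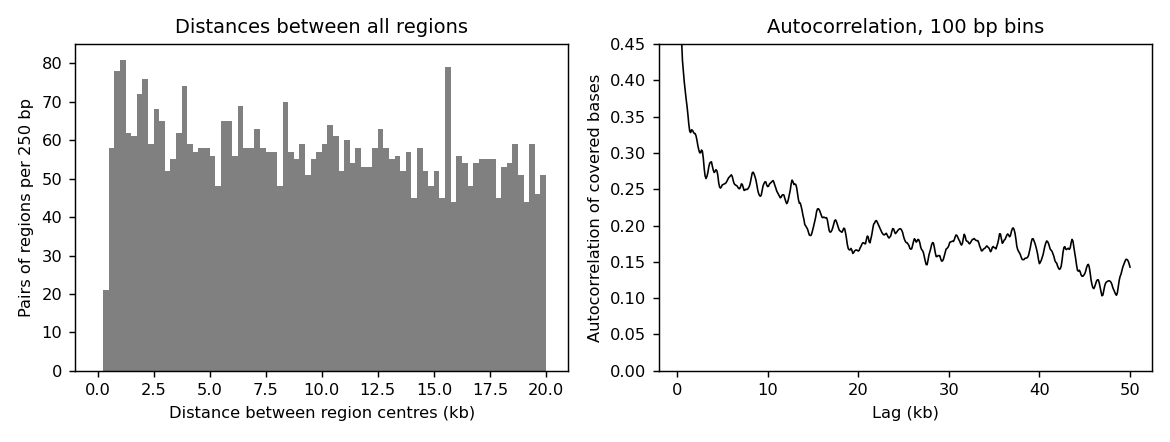
Left, the number of pairs of regions per 250 bp of distance between their centres. Right, the autocorrelation of bases covered by merged regions, in 100 bp bins, for lags of 500 bp to 50 kb. Pairs are most frequent near 1 kb, without evenly spaced maxima. The autocorrelation declines from 500 bp on with its first local maximum at 1600 bp. Its maxima at 1600, 2700 and 3800 bp are evenly spaced, and the next one, at 4300 bp, breaks that step.

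The flanks of 1 Mb held 33 regions on the left and 8 on the right. In the left flank, a group of 20 regions at 49098835 to 49124067 (25.2 kb) resembled the cluster. All 20 carried H3K9me3, with 19 peaks before and 20 after weaning, 7 and 10 of RNA pol II, 1 and 3 of H3K9ac, and 0 and 3 of H3K27ac. A second group of 10 regions at 49271070 to 49343944 carried no H3K9me3 or RNA pol II. It had 10 H3K27ac peaks before and 1 after weaning, and 1 H3K9ac peak before weaning. The 8 regions of the right flank, at 52450942 to 52466193, all carried H3K9me3, and H3K27ac had 0 peaks there before and 1 after weaning. Within 1 stretch of chromosome 17, regions with and without H3K9me3 thus had H3K27ac changes in opposite directions, although the counts in the flanks were small.

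Peak density in the window exceeded that of its flanks in 7 of the 8 lists. For H3K9me3 it was 197.5 peaks per Mb before and 217.5 after weaning, 16.5 and 15.5 times that of the flanks. For RNA pol II it was 63.5 and 96.0 peaks per Mb, 15.9 and 16.0 times, and for H3K9ac 14.5 and 41.0 peaks per Mb, 9.67 and 20.5 times. For H3K27ac it was 4.5 peaks per Mb before weaning, 0.90 times the flanks, and 32.0 after weaning, 12.8 times. These ratios depended on the length of the flanks. With flanks of 2 Mb they were 31.6 and 28.1 for H3K9me3, 32.0 for RNA pol II after weaning, 2.52 for H3K9ac before weaning, and 0.196 and 3.12 for H3K27ac. With flanks of 1 Mb, the low value of H3K27ac before weaning came with the 10 peaks of the second group in the left flank.

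The other windows of 2 Mb with the most H3K9me3 peaks differed from the cluster in size and in part in direction. The window at 24 to 26 Mb of chromosome 17 had 65 H3K9me3 peaks in both lists and 16 RNA pol II peaks before and 38 after weaning. There H3K9ac had 2 and 11 and H3K27ac 1 and 6 peaks, the same direction as in the cluster. The first 2 Mb of chromosome 14 had 45 and 147 H3K9me3 peaks and 3 and 23 RNA pol II peaks, but fewer peaks after weaning for H3K9ac (12 and 3) and H3K27ac (66 and 29). The window at 6 to 8 Mb of chromosome 6 had 72 and 54 H3K9me3 peaks and fewer peaks after weaning for H3K9ac (8 and 6), H3K27ac (48 and 19) and RNA pol II (17 and 15). The RNA pol II counts of these windows are by the labels, and exchanging its lists would turn the direction in each. By the labels, 10 of 11 RNA pol II regions before and 22 of 22 after weaning had H3K9me3 at 24 to 26 Mb of chromosome 17. On chromosome 14 it was 2 of 3 and 18 of 22, and on chromosome 6 11 of 14 and 10 of 12. Regions of all 4 marks numbered 5 of 68 (7.35%) at 24 to 26 Mb of chromosome 17, 1 of 230 (0.435%) on chromosome 14 and 3 of 149 (2.01%) on chromosome 6, against 40 of 452 (8.85%) in the cluster, whose interval includes the first of these shares.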

How the data were processed

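The deposited files hold, per the methods of the study, peaks called by the authors with MACS2 at default settings against 1 input library, from reads aligned with BWA to UMD3.1.1, with unique alignments of fewer than 2 mismatches kept. Values are start and end positions in bp, with no score. Unique alignment removes reads of repeats that are identical across copies, and all lists share the same input. The submitters' processing notes also name Trim Galore 0.4.1. End minus start was at least 199 bp, so positions were read as 1-based with both ends included.

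Groups came from the labels. Peaks were merged where they shared at least 1 bp, over the 8 lists, and a list was counted in a region if it had a peak there. Shares have Wilson 95% intervals, ratios exact binomial ones. Spacing was taken between region centres, and autocorrelation over covered bases in 100 bp bins. With 1 library per group nothing was tested. Python 3.11.15, numpy 2.4.6 and scipy 1.17.1 were used. The merging, kept counts and autocorrelation were checked on simulated data. The text names the regions occupied in all 8 lists, the widest peak per list and the ends of the bounds. The window and all settings were chosen with earlier results of these data known. No genome or annotation of UMD3.1.1 was used here, so sequences and genes were not analysed.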

Additional observations from a re-analysis of the deposited data

How the results depend on the processing

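Of the recomputed values, 58 stayed near the reported one (within its interval, within 1.5 times for a number of regions, within 100 bp for a lag, or equal for a bound) and 47 moved. The RNA pol II ratio with its lists exchanged was the 1 value counted as turned in direction. Taking equal numbers of the widest peaks per mark moved the after to before ratio to 27.3 for H3K9ac (3 peaks before, 82 after). It moved that of RNA pol II to 3.31 and that of H3K9me3 from 1.101 to 0.922, which is below 1 but counted here as moved. No H3K27ac peak of the window was left before weaning, so there was no ratio for it. Each block alone gave ratios above 1 for every mark. Merging within 1 kb gave 166 regions with a median spacing of 4691.5 bp; leaving out single lists gave 396 to 454 regions. With that merging, 98.9% of RNA pol II regions after weaning had H3K9me3, and 91.8% of RNA pol II and 90.5% of H3K9me3 regions were kept. A reciprocal overlap of 50% lowered the share of RNA pol II with H3K9me3 to 51.97% before and 45.8% after weaning, and the kept shares to 58.6% (H3K9ac), 70.1% (RNA pol II) and 58.2% (H3K9me3). RNA pol II after weaning alone had a median spacing of 2423.5 bp. The leading lag was 2800 bp with 200 bp bins, 1200 bp from centres, 1800 and 2100 bp for H3K9me3 before and after weaning, 9500 bp for RNA pol II after weaning, 43600 bp after subtracting a running mean of 10 kb and 2000 bp in the right block, so no lag was stable. Gaps of at most 20 kb moved the first base to 51355632, and gaps of at most 100 kb the last base to 51719756. Against flanks of 2 Mb the density ratio was 2.52 (H3K9ac before weaning), 0.196 and 3.12 (H3K27ac), 32.0 (RNA pol II after weaning), and 31.6 and 28.1 (H3K9me3). With RNA pol II left out, 84.6% of regions had more active marks after weaning and 2.20% fewer; with its lists exchanged 43.8% and 26.1%, and in H3K9me3 regions 84.4% and 2.22%, and 43.4% and 26.3%. Exchanging the lists turned the RNA pol II ratio to 0.661. It put RNA pol II on 43.9% and 26.6% of H3K9me3 regions before and after weaning, and after weaning on 76.4% of H3K9ac and 82.1% of H3K27ac regions. Its kept share was 60.5% and its gained share 13.6%, with 7.53% gained and 37.8% lost where H3K9me3 was in both lists. Of H3K9me3 regions without RNA pol II, 1.02% and 2.03% gained H3K9ac and H3K27ac. The causes of these shifts were not tested. The single blocks, the lists left out or exchanged and the running mean were chosen after seeing the data. No paired analysis was possible because each group has 1 library. The lists give no read depth, so its effect on the counts was not tested.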

Other observations

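The rows of the peak lists are not in the order of position, and what they are ordered by is not given in the sources used here. Among the first 100 rows, peaks of the chromosome 17 window numbered 29 for RNA pol II after weaning, 25 for H3K9me3 after weaning, 24 for H3K9ac after weaning and 23 for H3K9me3 before weaning. They numbered 3 for RNA pol II before weaning, 1 for H3K9ac before weaning and 0 in both H3K27ac lists. For H3K9ac after weaning this compares with 3.86% of the whole list, and for both RNA pol II lists with 26.0% after and 6.18% before weaning.

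Peaks of different lists often began at the same base. In regions of the window with H3K9me3 and a peak in 2 or more lists, 180 of 1185 peaks (15.2%, 95% Wilson interval 13.3 to 17.3) shared their exact start with a peak of another list. In such regions outside the window it was 582 of 3520 peaks (16.5%, 15.3 to 17.8), so among such regions the window did not stand apart. Over all peaks, without this restriction, it was 180 of 1333 (13.5%, 11.8 to 15.4) in the window and 6004 of 129247 (4.65%, 4.53 to 4.76) outside.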
